A study of Mus musculus with 2 samples.

Results

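This report describes RNA immunoprecipitation peaks of the m6A reader YTHDF2 over 8 genes of the dystrophin complex and of muscle membrane repair: Utrn, Dtna, Dtnb, Sgcd, Sntb1, Sntb2, Itga7 and Dysf. They are 8 of the 3287 protein-coding genes whose mm10 gene body overlapped at least 1 bp of a peak, and 18 of the 9271 deposited peaks lay over them. The genes were chosen by these peaks, that is, by the deposited list having a peak over each, so the presence of a peak is a description and was not tested. The cells were wild-type C2C12 myotubes, differentiated from an established mouse myoblast line in low serum, with no further treatment and batch label 1. From these cells 1 library was made of RNA pulled down with YTHDF2 and 1 of input RNA, so no value has a replicate. The design text also names an IgG control, which was not analysed here. Setting the pulldown against input asks where along these genes YTHDF2 was bound.

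The dystrophin complex links the actin cytoskeleton of a muscle fibre to laminin outside the cell. Dystrophin or its paralog utrophin binds actin on the inside, dystrobrevins and syntrophins attach to it as cytoplasmic adaptors, and dystroglycan with the sarcoglycans spans the membrane. Integrin α7β1 is another laminin receptor of muscle, and dysferlin brings vesicles to tears in the membrane to patch them. YTHDF2 binds mRNAs that carry N6-methyladenosine, often within the sequence GGAC, and recruits the deadenylation machinery to them.

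For Sgcd and Dysf, the intron peak of highest fold enrichment is shown in full, since this pair shows how far the base composition described further on varied among the members. Both sequences were read from the RefSeq FASTA of the mm10 assembly and run 5′ to 3′ on the strand of the gene. Capitals mark bases that the FASTA masks as repeats or low complexity. The Sgcd peak lay at chr11:47068503-47068745 on the minus strand and the Dysf peak at chr6:84020776-84020961 on the plus strand.
Sgcd: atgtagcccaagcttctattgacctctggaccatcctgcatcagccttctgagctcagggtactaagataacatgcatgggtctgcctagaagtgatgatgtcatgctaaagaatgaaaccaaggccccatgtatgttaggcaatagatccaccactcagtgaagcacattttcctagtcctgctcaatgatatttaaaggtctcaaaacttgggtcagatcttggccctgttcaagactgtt
Dysf: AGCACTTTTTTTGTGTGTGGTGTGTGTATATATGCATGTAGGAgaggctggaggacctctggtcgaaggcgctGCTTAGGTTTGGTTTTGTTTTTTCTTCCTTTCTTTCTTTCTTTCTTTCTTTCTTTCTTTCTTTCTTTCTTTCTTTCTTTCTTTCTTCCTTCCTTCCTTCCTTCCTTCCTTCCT
The Sgcd sequence had no masked base among its 243. The Dysf sequence had 156 of its 186 bases masked and held 96 consecutive C or T.

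Fold enrichment is the authors' own value for each peak, the RIP pileup at the summit over the local input background with 1 added to both. Pileups were whole multiples of 0.9, and 1 such step was read as 1 RIP fragment. The 95% intervals given with folds are exact Poisson intervals of those fragments. They account for RIP counting error alone and treat the background as known. The depth of both libraries is unknown, and neither RNA levels nor the strand of the fragments were available in the values used, so a high pileup and an abundant transcript cannot be told apart.

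Utrn, which encodes utrophin, carried 4 peaks over its 487 kb (ENSMUSG00000019820.11, chr10:12382188-12869365, minus strand). The peak nearest the gene start held 129 fragments, the most of all 18, over a background of 34.0, for a fold of 3.35 (2.80 to 3.97). It covered chr10:12868950-12869141, wholly inside the 611 bp exon 1 of the transcript Utrn-205. This exon is 5′ untranslated sequence, and 67.2% of the bases of the peak were G or C. Of the 13 annotated Utrn transcripts, Utrn-205 was the only one with an exon under the peak. The transcript of the longest coding sequence, Utrn-201, starts 7.31 kb downstream of the centre of the peak. Utrn-212, Utrn-208 and Utrn-211 start nearer to it, at 0.764, 0.866 and 0.874 kb downstream. The exon peak was also the only one of the 18 peaks that the authors' deposited gene table holds, marked there as 5′ UTR and nothing else. The other 3 Utrn peaks were intronic.

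The first intronic Utrn peak, 34.7 kb from the gene start in intron 1 of 73, held 41 fragments at a fold of 3.45 (2.50 to 4.64) and contained a run of 115 A or G. The second, 341 kb in and in intron 51, was rich in G and T and held 34 fragments at a fold of 5.09 (3.57 to 7.05). The third, 398 kb in and in intron 57, held 19 fragments at 2.59 (1.61 to 3.96). Its −log10 q-value of 1.60 was the lowest of the 18 peaks, against 1.43 for the lowest of the whole list. The Utrn exon peak thus had the most fragments of the gene, while the peak in intron 51 had its highest fold, and their intervals overlapped.

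The dystrobrevins, which bind dystrophin or utrophin and carry the syntrophins, had 1 intronic peak each. Dtna (α-dystrobrevin, ENSMUSG00000024302.16, 245 kb, chr18:23415135-23659715, plus strand) had 29 fragments at a fold of 4.52 (3.08 to 6.41). The peak lay in intron 11 of 24, 183 kb from the gene start and 788 bp from the nearest exon, the shortest such distance of the intron peaks. Dtnb (β-dystrobrevin, ENSMUSG00000071454.13, 209 kb, chr12:3572381-3781796, plus strand) had 14 fragments over a background of 2, a fold of 4.53 (2.63 to 7.38). Its peak lay 88.6 kb in, in intron 8 of 17 and 1574 bp from an exon. The paralogs did not differ in fold beyond counting error.

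Sgcd encodes δ-sarcoglycan, a membrane-spanning subunit whose loss causes limb-girdle muscular dystrophy, and was the longest of the 8 genes (ENSMUSG00000020354.15, 1093 kb, chr11:46896253-47988969, minus strand). Its 4 peaks were all intronic and came as 2 close pairs. Introns are numbered in Sgcd-201, which spans only a part of the gene. The first pair lay in intron 2 of 7, 671 and 673 kb from the gene start and 2.01 kb apart, with 27 fragments at a fold of 2.53 (1.70 to 3.64) and 34 fragments at 3.95 (2.77 to 5.47). The second pair lay in intron 6, 913 and 920 kb from the start and 7.56 kb apart, with 12 fragments each and folds of 3.93 (2.19 to 6.62) and 5.25 (2.93 to 8.84). The higher fold of the last peak rested on a background of 1.25. The intervals of all 4 peaks overlapped, so their order was not resolved. Between the pairs lay 240 kb without a peak.

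The β-syntrophins, adaptors with a PDZ domain that anchor signalling proteins and channels to the complex, held 6 of the 18 peaks, all in the first intron. Sntb1 (β1-syntrophin, ENSMUSG00000060429.12, 271 kb, chr15:55636388-55906949, minus strand) had 2, at 49.4 and 72.2 kb from the gene start. The first held 15 fragments at a fold of 5.83 (3.44 to 9.35). The second held 17 fragments over a background of 1.08, and its fold of 7.83 (4.76 to 12.2) was the highest of the 18. Its lower bound lay above the upper bound of 6 other member peaks, with the background taken as known. That background was at the floor of the list, where the lowest of all peaks in protein-coding gene bodies was also 1.08. Both Sntb1 peaks were far from any exon, at 48347 and 42415 bp.

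Sntb2 (β2-syntrophin, ENSMUSG00000041308.6, chr8:106935750-107019714, plus strand) had 4 peaks in 84.0 kb, all of them in a first intron of 44.8 kb. From the 5′ side they lay 9.55, 11.8, 22.9 and 34.1 kb from the gene start. They held 46, 49, 31 and 18 fragments, with folds of 3.26 (2.41 to 4.32), 4.81 (3.59 to 6.33), 4.82 (3.33 to 6.77) and 3.44 (2.12 to 5.32). These 4 intervals overlapped, so no order along the intron was resolved. The gene thus held as many peaks as Utrn or Sgcd in a far shorter body.

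Itga7 encodes the α7 chain of the laminin-binding integrin of muscle and was the shortest member (ENSMUSG00000025348.9, 24.5 kb, chr10:128933818-128958282, plus strand). Its 1 peak was the longest of the 18, 547 bp at chr10:128952150-128952696, with 66 fragments over a background of 20 and a fold of 2.88 (2.24 to 3.65). The peak lay inside a 3843 bp exon of Itga7-205, a transcript annotated as a retained intron with no coding sequence. In the coding transcript Itga7-202 the same bases are intron 21 of 24. The peak is not in the authors' deposited gene table.

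Dysf encodes dysferlin, a membrane protein with C2 domains that acts in calcium-dependent resealing of the plasma membrane (ENSMUSG00000033788.15, 202 kb, chr6:84008590-84211060, plus strand). Its 1 peak lay 12.3 kb from the gene start, in intron 1 of 55 and 1168 bp from the nearest exon. It held 15 fragments over a background of 1.49, a fold of 5.83 (3.44 to 9.35). The count and the fold equalled those of the first Sntb1 peak.

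**Figure D1:**
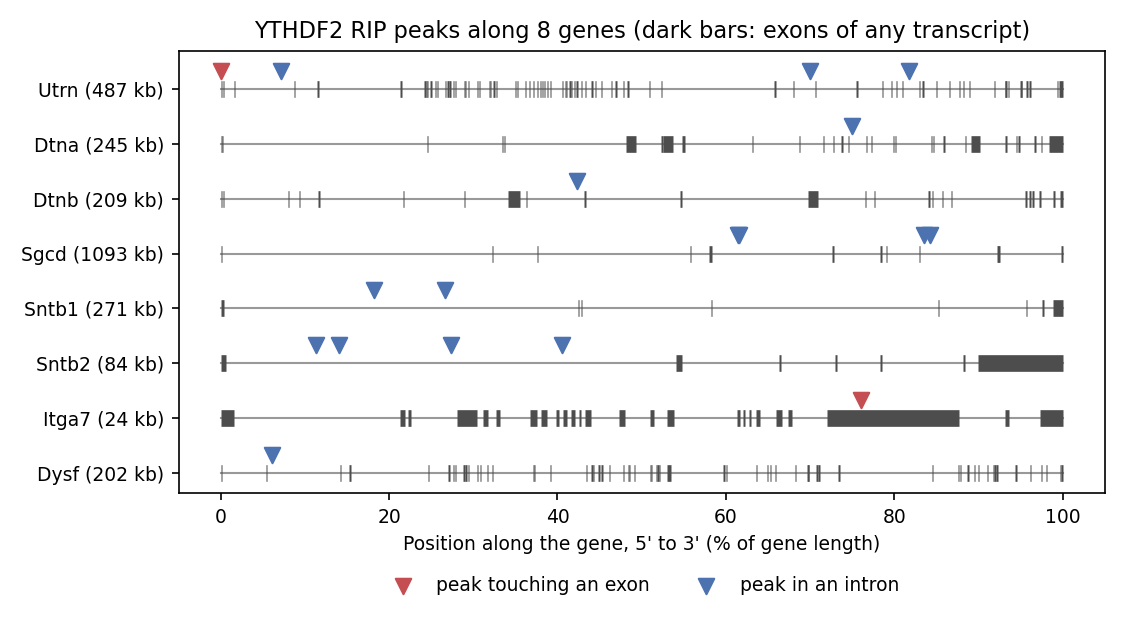
Positions of the 18 YTHDF2 RIP peaks along the 8 genes, as percent of gene length from 5′ to 3′, with exons of any transcript as dark bars and gene length in brackets. Red triangles mark the 2 peaks that touch an exon, in Utrn and Itga7, and blue triangles the 16 in introns; the 4 Sntb2 peaks sit in its first intron, and the 2 Sgcd peaks at 671 and 673 kb overlap as 1 triangle.

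Set side by side, the member peaks were of ordinary strength for this list. Their median fold was 4.23 (quartiles 3.37 and 5.02, range 2.53 to 7.83), against 4.39 (quartiles 3.34 and 5.60) over the 8778 peaks in protein-coding gene bodies. They held a median of 28 fragments (range 12 to 129), against 29. The interval of 12 of the 18 peaks held the median of all peaks. Of the remaining 6, the Sntb1 peak at 72.2 kb lay above it, and 2 Utrn peaks, 1 Sgcd peak, 1 Sntb2 peak and the Itga7 peak lay below. A fold of 4 or more was reached by 9 of 18, 50% (Wilson 95% interval 29.0 to 71.0), against 59.5% (58.4 to 60.5) of all these peaks. Of these 9 peaks, 5 held fewer than 20 fragments at the summit, and their intervals were wide.

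**Figure D2:**
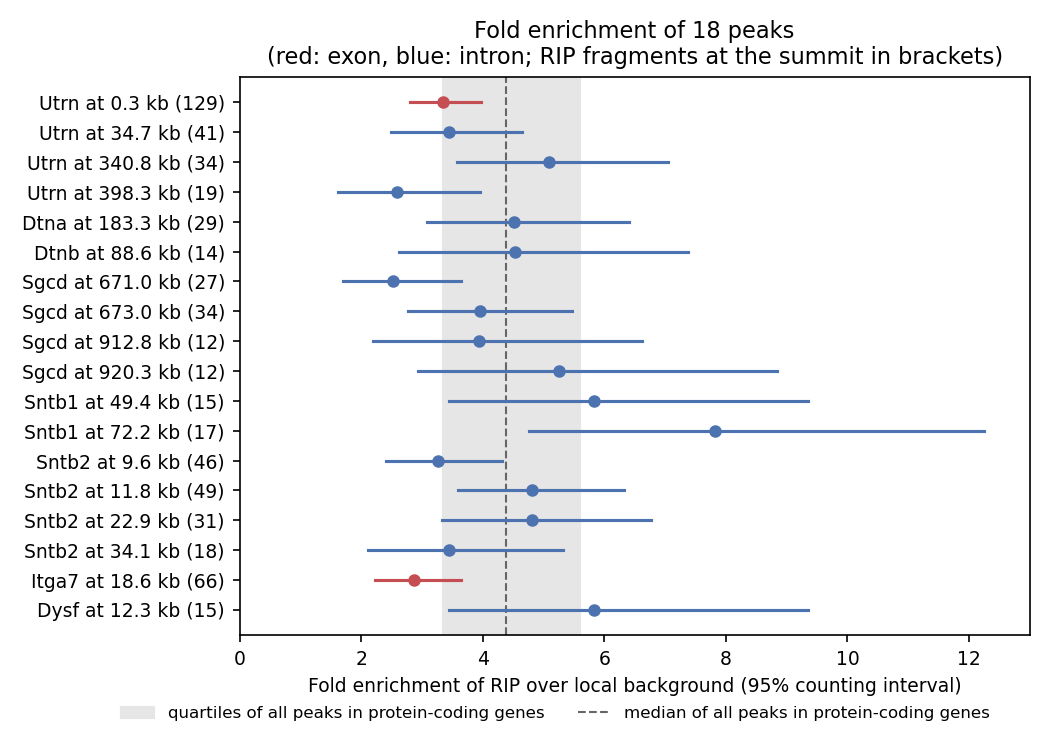
Fold enrichment of RIP over local input background for each of the 18 peaks, named by gene and distance from the gene start, with 95% counting intervals as bars and RIP fragments at the summit in brackets; the dashed line and grey band are the median, 4.39, and quartiles of all 8778 peaks in protein-coding genes. Both exon peaks, in red, lie below the median at 3.35 and 2.88, and the Sntb1 peak at 72.2 kb is highest at 7.83.

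Of all 21938 protein-coding genes, 15.0% had a peak in the gene body and 7.01% had one touching an exon. All 8 members had a peak, as their choice required, and 2 of the 8, Utrn and Itga7, had one touching an exon. Among the 3287 protein-coding genes with a peak, from which the members come, 1538 had one touching an exon. Of the 18 member peaks, 16 lay outside exons of any transcript, 88.9% (67.2 to 96.9), against 6795 of 8778, 77.4% (76.5 to 78.3), of the peaks in protein-coding genes. The interval of the members' share includes the share of all peaks. With exons of coding transcripts alone, 17 of 18 (94.4%, 74.2 to 99.0) lay outside, the Itga7 peak being the one that moved. No member peak lay over another annotated gene.

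Exons make up 3.21% of the length of the 8 genes, against 9.06% over all protein-coding genes. Per 100 kb of sequence, the members had 2.38 exon peaks against 0.632 intron peaks. Over all protein-coding genes these densities were 2.08 and 0.726, counting a peak once for each gene it overlaps. The higher exon density of the members rests on 2 peaks in 84.0 kb of exon. Intron peaks outnumbered exon peaks in these genes. A peak counts as exonic at 1 bp of overlap, while exon length counts exon bases alone, which can raise the exon densities. By exons of any transcript, exons were the denser of the compartments, in the members as in all genes. For the members this order depends on that choice. With exons of the transcript of longest coding sequence alone, or with peaks of fold 4 or more alone, 100% of member peaks lay outside exons.

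The median distance of the intron peaks to the nearest exon was 9978 bp (range 788 to 48347), and 15 of the 16 lay over 1 kb away. Exons are 3.21% of the length of these genes, and the distance was not set against that of other intron peaks or intron positions. Counting the Itga7 peak, 17 peaks lay in an intron of the transcript of longest coding sequence, and 8 of them, 47.1% (26.2 to 69.0), in intron 1. First introns made up 20.7% of the intron length of those transcripts. Sntb2 supplied 4 of the 8 peaks, and its first intron is 60.4% of its intron length. Without Sntb2, 4 of 13 peaks (30.8%) lay in first introns that made up 19.1% of the intron length. The share in first introns was not set against that of other intron peaks.

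Pooled over 2615 kb, the 8 genes had 0.688 peaks per 100 kb, against 0.849 over all protein-coding gene bodies. Leaving out Sgcd raised the pooled value to 0.919 and leaving out Sntb2 lowered it to 0.553. The members' value therefore stood below that of all genes, which include those without a peak, only with Sgcd included. Over the protein-coding genes with a peak alone, the pooled value was 2.85, above the members' value with or without Sgcd. By gene, Sntb2 had 4.76 and Itga7 4.09 peaks per 100 kb. Utrn had 0.821, Sntb1 0.739, Dysf 0.494, Dtnb 0.478, Dtna 0.409 and Sgcd 0.366. The members thus split into the shortest pair above 4 and the 6 longer genes below 1.

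The median density of the members was 0.617 per 100 kb (quartiles 0.460 and 1.64), against 3.73 (quartiles 1.81 and 7.67) over the 3287 genes with a peak. The members were also longer, with a median of 227 kb against 53.4 kb. A gene enters this set with as little as 1 peak, so the lowest density it can have falls with its length. Among genes with a peak, those of 200 to 500 kb had a median density of 0.908, and Utrn, Sntb1, Dysf, Dtnb and Dtna all lay below it. Sgcd lay below the 0.450 of genes over 500 kb, and Itga7 below the 10.1 of genes under 25 kb. Itga7, at 24.5 kb, is at the upper edge of that class, and it lay above the 3.49 of genes of 25 to 80 kb. Sntb2 lay above the 2.07 of genes of 80 to 200 kb, so that 7 of the 8 members were less dense than the median of their length class. A single peak was found in 4 of the 8 members (50%), against 50.6% of the genes with a peak, and 4 peaks or more in 3 of 8 (37.5%), against 21.1%.

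**Figure D3:**
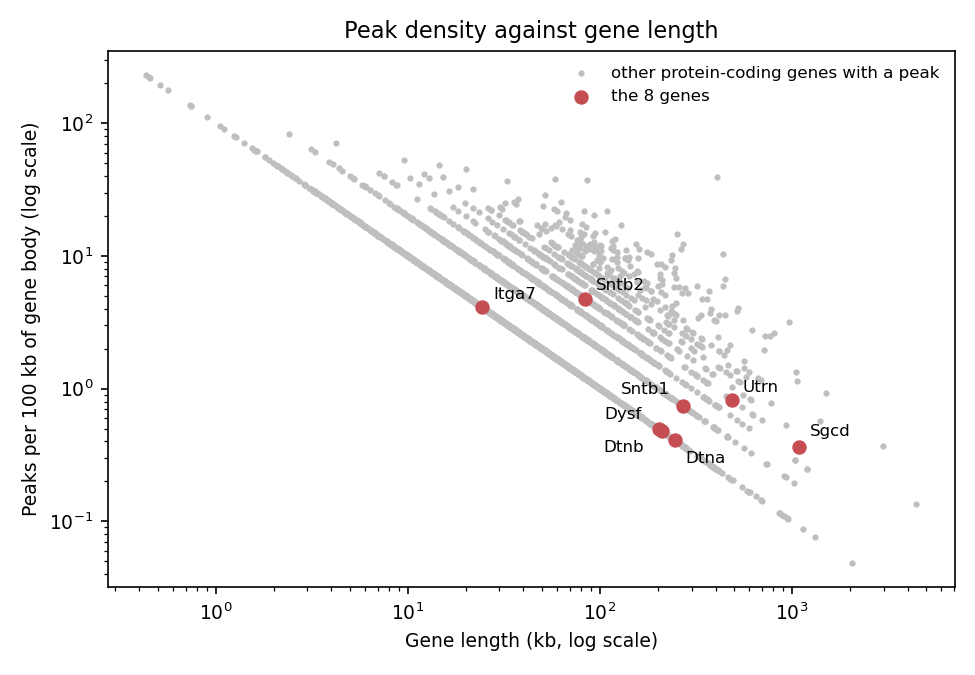
Peaks per 100 kb of gene body against gene length in kb, both on log scales, for the protein-coding genes with a peak (grey) and the 8 members (red, named). The diagonal lines of points are genes with 1, 2, 3 and more peaks; Dtna, Dtnb, Dysf and Itga7 lie on the line of 1 peak, and Sntb2 has the highest density of the members at 4.76.

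Base composition was not used to choose the genes. The 16 intron peaks of the members had 58.9% of their bases masked as repeats or low complexity. Windows of 1 peak width on both sides had 28.7%, and all introns of the 8 genes had 29.0%. The 6709 other intron peaks of protein-coding genes had 42.0%, against 30.5% beside them. More than 50% of the bases were masked in 11 of the 16 peaks (68.8%), against 41.1% of the other intron peaks. How reads that map to several places were treated is not given in the sources used here, and their part in the masked share was not tested.

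The masked share varied widely among members. It was 99.5% in the Dtna peak and 83.3% in the Dtnb peak. The 4 Sntb2 peaks ranged from 81.1% to 94.5%, above the 39.5% of all introns of that gene. The 4 Sgcd peaks were mixed, at 9.69%, 76.7%, 22.8% and 0%. Sntb1 had 1 peak with no masked base, at 49.4 kb, and 1 with 54.5%, at 72.2 kb. Over all 18 peaks, masking was higher in the peak than beside it in 13 and lower in 4, namely the Utrn exon peak and 3 of the Sgcd peaks.

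**Figure D4:**
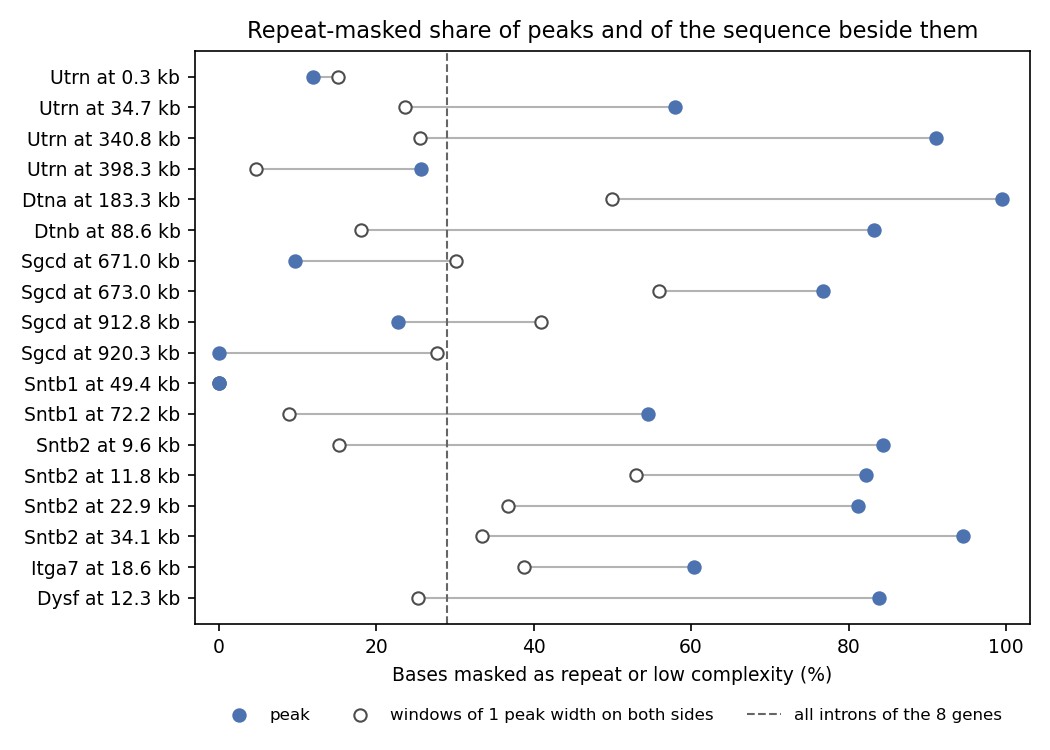
Percent of bases masked as repeat or low complexity in each of the 18 peaks (filled) and in windows of 1 peak width on both sides (open), with the share over all introns of the 8 genes, 29.0%, as a dashed line. Most filled points lie to the right of the open ones; the Sntb1 peak at 49.4 kb has no masked base in the peak or beside it.

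G and T together made up 64.1% of the bases of the 16 intron peaks on the strand of the gene, against 52.3% beside them. The other intron peaks had 55.8% against 52.2%. The share of G and C was close to that of the windows beside, at 42.9% against 42.6%. A run of 20 or more G or T occurred in 8 of the 16 member peaks (50%) and in 18.1% of the other intron peaks. The longest was the 67 bases in Utrn intron 51, and the Sntb2 peaks at 9.55, 11.8 and 22.9 kb had runs of 38, 49 and 35.

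The pentamer TTTTG, searched after the sequences had been seen, occurred 9.86 times per kb in the 16 intron peaks on the strand of the gene and 0.580 times on the other strand. Beside the peaks these values were 2.17 and 1.45. The other intron peaks had 3.97 and 1.15, against 3.01 and 2.04 beside them. TTTTG was found in 11 of the 16 peaks (68.8%), against 49.2% of the other intron peaks. Of its 34 matches, 15 were in the Sntb2 peaks and 7 in the Dtnb peak, and 6 of the 8 genes had at least 1. Within these peaks TTTTG therefore lay mainly on the strand of the gene, and the asymmetry was seen in other intron peaks as well. In windows 5 peak widths away from the 16 peaks, it occurred 2.32 times per kb on that strand and 2.61 on the other.

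TGTGTG, also searched after the sequences were seen, occurred 6.96 times per kb on the strand of the gene and in none of the 16 intron peaks on the other. Beside the peaks these values were 1.88 and 0.870. The other intron peaks had 7.04 and 0.805, against 2.38 and 1.36 beside them. At least 1 TGTGTG was found in 7 of the 16 member peaks (43.8%) and in 23.7% of the other intron peaks. The Dtna peak alone held 9 matches. GGAC, the core of the commonest m6A context, occurred 2.90 times per kb in the 16 peaks and 2.46 times beside them, from 10 and 17 matches. On the other strand it was 4.64 against 3.04. At least 1 GGAC was found in 10 of the 16 peaks (62.5%) and in 43.8% of the other intron peaks, which had 2.37 per kb against 2.14 beside them. The ratios in the members rest on few matches. A match describes the letters in the window and is not evidence of a methylated site.

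Beyond the 8 genes, a list of 27 genes of the dystrophin complex had 8 with a peak in the gene body (29.6%), against 15.0% of all protein-coding genes. Of the 8, 7 are members chosen for having a peak, so nothing is read from this share or from that of the remaining genes. The one that is no member was Itgb1, the integrin β1 chain that pairs with α7, with 3 peaks, 1 of them touching an exon, and a highest fold of 3.97 (2.56 to 5.91) in an intron. Among dystrophin paralogs and dystrobrevins 3 of 5 genes had a peak, among dystroglycan and sarcoglycans 1 of 8, among syntrophins and their partners 2 of 7, and among laminins and their receptors 2 of 7. No peak was called over Dmd, the dystrophin gene, whose 2257 kb make it the longest of the list. Sgcz (1139 kb), Sntg1 (938 kb) and Lama2 (640 kb) were likewise without one. These long genes were picked after their values were seen. Over the whole list, the genes with a peak had a median length of 227 kb and those without one 59.3 kb. Among all protein-coding genes the share with a peak was 6.0% under 25 kb and 38.3% from 200 to 500 kb. It was 29.7% from 500 to 3000 kb, the class of Dmd, Sgcz, Sntg1 and Lama2, so most genes of that class had none. A missing call does not show that a transcript was unbound.

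Of 31 genes of a membrane repair list, 8 had a peak in the gene body (25.8%), against 15.0% of all protein-coding genes. A peak touching an exon was found in 1 of the 31, S100a10, against 7.01% of all protein-coding genes. Without Dysf, 7 of 30 had a peak (23.3%). The median length of the list was 31.0 kb. Of all protein-coding genes, 6.0% of those under 25 kb, 23.8% of those of 25 to 80 kb and 36.4% of those of 80 to 200 kb had a peak. The list holds genes of each of these classes, and the part of gene length in its share was not tested. Myof, the ferlin most like dysferlin, had 1 intron peak at a fold of 5.13 (3.50 to 7.29), within counting error of that of Dysf. The annexins Anxa5 and Anxa7, which bind phospholipid at membrane wounds in the presence of calcium, had 1 intron peak each at 2.71 (1.96 to 3.65) and 5.27 (3.70 to 7.29). Ahnak, a very large scaffold protein that binds dysferlin, had 1 at 5.10 (2.91 to 8.44). The ESCRT genes Vps4b, an ATPase, and Pdcd6ip, which encodes ALIX, had 3 peaks with a highest fold of 5.89 (4.07 to 8.28) and 1 peak at 3.07 (1.98 to 4.58). By the peak of highest fold in each gene, S100a10, the partner of annexin A2, had the most fragments of the list, 254, at the lowest fold, 1.75 (1.54 to 1.98).

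Of 18 markers of differentiated muscle, 5 had a peak (27.8%, against 15.0% of all protein-coding genes). The same 5 of the 18 had one touching an exon (27.8%, against 7.01%). They were the troponins Tnni2 and Tnnt1, the myosin light chain Mylpf, and the giant proteins of the sarcomere Neb and Ttn. None of 6 markers of myoblasts, 4 of endothelial cells or 4 of immune cells had a peak, and 1 of 6 neuron markers, Syn1, had 1 in an intron. At a share of 15.0% over all genes, lists of 4 to 6 genes can be without a peak, and nothing is read from these zeros. A peak does not measure expression, so these counts do not give the purity of the culture.

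The authors' deposited table of Gene Ontology terms was built from their gene table, which holds 1285 genes and only Utrn of the members. The authors' deposited table gave 1 gene, Utrn, of the 17 in the term dystrophin-associated glycoprotein complex, where 1.04 were expected (Fisher p-value 0.660 and FDR 0.803). For the sarcolemma the authors' deposited table gave 4 of 104 genes, Dlg1, Gnas, Itgb1 and Rdx, where 6.39 were expected (FDR 0.964). None of the other 7 members is named in any term of that table.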

How the data were processed

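Peaks were called on 1 YTHDF2 RIP library over 1 input library of C2C12 myotubes. Bowtie aligned the reads to mm10 and MACS called the peaks, as the series' design text says. The submitters' processing notes also list DiffBind, deepTools, HOMER, Picard, Trim Galore and FastQC, and neither names their versions and settings. The labels' protocol words the library steps after the pulldown for DNA.

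Per the file headers, each deposited peak has a pileup signal, a fold enrichment, which is a linear ratio of RIP to background, and 2 columns of −log10 values, for the p-value and the q-value. The p-value of Fisher's test and the FDR of Gene Ontology terms are the authors' own, from their deposited table. No per-sample column was left unused, and no file gives a library total.

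Peaks were assigned to GENCODE gene models on the same build by at least 1 bp of overlap, and called exonic if they touched an exon of any transcript. The input background followed from dividing the pileup by the fold enrichment, allowing for the 1 that the caller adds to both terms. Shares of peaks carry Wilson 95% intervals, which take peaks as independent although several lie in 1 gene, and fragments can include PCR copies. Sequence came from the RefSeq FASTA and its soft masking, and masked bases were not assigned to repeat families. No test was run, since each group has 1 library. The step that calls overlap of peaks with exons was tested on simulated data. Python 3.11.15, pandas 2.3.3, NumPy 2.4.6, SciPy 1.17.1, pysam 0.24.0 and samtools 1.23.1 were used.

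The 8 genes and the gene lists were chosen with earlier results of these data known. Genes named are the 8 members, with every listed gene that has a peak, and Dmd, Sgcz, Sntg1 and Lama2, which were picked afterwards as the longest listed genes without a peak. Some listed genes and peak sequences that this rule covers are not reported here. Of 32 membrane repair genes, Vamp7 was left out, since the annotation places it on an unplaced scaffold. Alternatives on masking, on TTTTG and on leaving out a gene were added after seeing the data.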

Additional observations from a re-analysis of the deposited data

How the results depend on the processing

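The counts, shares and medians were recomputed under other choices of peaks, exons and windows. Keeping only peaks of fold enrichment of at least 4 left 9 of the 18 peaks, all (100%) outside exons, with a median of 0.443 peaks per 100 kb and a median fold of 5.09, and 5 membrane repair genes in place of 8. Keeping only q-values of at most 1e-05 left 12 peaks, a change of 1.5 times, and also 5 membrane repair genes. Each of these filters left 7 of the 8 members with a peak, and they left 6 and 7 of the 8 dystrophin complex genes. With exons of the transcript of longest coding sequence alone, 100% of the 18 peaks lay outside exons. Assigning peaks by their centre, or leaving out peaks over another gene, gave the same 18 peaks. The masked share in peaks over that beside them was 1.97 with windows 5 peak widths away, against 1.94 (all 18 peaks). TTTTG in peaks over beside them was 3.52 for all 18 peaks, 2.56 over either strand, 2.75 without Sntb2 and 4.62 with windows 5 peak widths away. The GGAC ratio ranged from 1.18 to 1.62. No paired analysis was possible because each group has 1 library and no result comes from a test. Depth limits the folds most in the 8 peaks that hold fewer than 20 fragments at the summit.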

Other observations

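Of 13 genes of a dystroglycan glycosylation list, 2 had a peak in the gene body (15.4%), against 15.0% of all protein-coding genes. A peak touching an exon was found in 1 of the 13, against 7.01% of all protein-coding genes. This gene was B4gat1, a glycosyltransferase that acts on the sugar chain by which dystroglycan binds laminin, and it had 1 peak. The gene is 2.31 kb long, and the peak held 148 fragments at a fold of 3.95 (95% counting interval 3.34 to 4.63).

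Outside the 8 gene bodies, the nearest peak lay 26.8 kb from Sntb2 (fold 2.75), 40.4 kb from Dysf (3.16) and 75.7 kb from Dtna (5.13). It lay 102 kb from Sntb1, 106 kb from Itga7, 108 kb from Dtnb, 140 kb from Utrn and 455 kb from Sgcd.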
